A study of Mus musculus with 10 samples.

Results

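Of the 10 samples of the series, 8 are ovarian tumors with an Lkb1 label, and they form the comparison described here: 5 tumors labelled as carrying an Lkb1 deletion against 3 labelled intact. The groups were taken from that label alone, and the tumors are numbered within a group in the order of their listing. Each tumor arose in a C57BL/6 mouse after plasmids for Cas9, guide RNA and Cre had been electroporated into the epithelium of the fallopian tube, and both groups share this treatment. The labels do not name the guides of a given tumor, the alleles that Cre acts on, or the age of the mice. Each tumor also has a PAX8 label, for a transcription factor that marks the fallopian tube epithelium. Lkb1-deleted tumors 1 and 4 and Lkb1-intact tumors 2 and 3 are PAX8-positive, and Lkb1-deleted tumors 2, 3 and 5 and Lkb1-intact tumor 1 are PAX8-negative. DNA from fixed and embedded tissue was sequenced at low coverage, and the authors deposited a log2 copy ratio for each of 59640 bins laid over genes, with a median length of 18629 bases. A value of 0 is the level of the reference, which the sources used here do not give, and bins with a depth of 0 were left out, which leaves 59496 bins measured in the 8 tumors. No DNA of normal tissue from the same mice was analysed here, so whether a level was present before the tumor formed was not tested. A bulk tumor holds cells of the host as well, so a weak change in most cells and a strong change in few cells cannot be told apart.

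LKB1, the product of Stk11, is a serine/threonine kinase that works in a complex with STRAD and MO25. It phosphorylates AMPK, the sensor of cellular energy, and a family of related kinases, among them the SIK, MARK, NUAK and BRSK kinases. It is known as a tumor suppressor of epithelia, and copy ratios show gains and losses of DNA, not the activity of this pathway.

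Differences between the Lkb1 groups that passed a test were short, and several lay among repeated gene families, so the start regions of a few family members are shown first. They come from RefSeq in the build GRCm38.p6, which is also the build of the bins, and span the end of the promoter and the first bases of the transcript. In the first pair the members differ from each other, and in the last entry they do not. Stfa1 (chr16:36276898-36277197, plus strand) lay in a locus that was lower in Lkb1-deleted tumors, whereas its neighbour Stfa2l1, the closest to it of the family in this stretch (chr16:36156561-36156860, plus strand), did not separate the groups. Capitals mark the 101 bases of each that differ from the other in the best alignment without gaps, where 65.8% of 295 bases are equal. Because no gaps were allowed, capitals in the last part of each also mark bases that are the same in both but shifted. An alignment with gaps was not made, and the rank of Stfa2l1 as the closest rests on the alignment without gaps. Cphx2 (chr14:26082043-26082342, plus strand) is a homeobox gene in a locus that holds 3 copies of the same genes. Its 300 bases are the same as those of Cphx3, so they hold no capitals, and Cphx1 equals them over the 296 bases that could be aligned. None of the sources used here says whether reads that match several copies were kept, so the values of such bins are uncertain as to which copy they belong to.
Stfa1: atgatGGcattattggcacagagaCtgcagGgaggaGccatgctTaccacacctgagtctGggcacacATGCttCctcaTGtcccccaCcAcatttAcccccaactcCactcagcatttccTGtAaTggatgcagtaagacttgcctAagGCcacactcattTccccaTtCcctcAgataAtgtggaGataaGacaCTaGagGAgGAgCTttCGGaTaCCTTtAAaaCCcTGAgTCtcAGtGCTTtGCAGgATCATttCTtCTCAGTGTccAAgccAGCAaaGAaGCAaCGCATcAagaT
Stfa2l1: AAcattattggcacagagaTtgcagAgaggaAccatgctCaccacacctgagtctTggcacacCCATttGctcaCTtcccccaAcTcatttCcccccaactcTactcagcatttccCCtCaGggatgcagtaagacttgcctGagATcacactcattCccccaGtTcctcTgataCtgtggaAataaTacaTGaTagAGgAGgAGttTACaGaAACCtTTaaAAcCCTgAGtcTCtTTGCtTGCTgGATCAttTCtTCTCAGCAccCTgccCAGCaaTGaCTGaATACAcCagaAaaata
Cphx2: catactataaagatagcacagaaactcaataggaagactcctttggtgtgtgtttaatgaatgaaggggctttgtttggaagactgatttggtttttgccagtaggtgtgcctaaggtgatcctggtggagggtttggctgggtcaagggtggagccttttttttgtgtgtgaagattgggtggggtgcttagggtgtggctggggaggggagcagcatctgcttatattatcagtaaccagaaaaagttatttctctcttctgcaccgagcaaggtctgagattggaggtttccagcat

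Stk11, the gene of the Lkb1 label, did not separate the groups. Stk11 (chr10:80115767-80130679) is covered by 1 bin, with log2 copy ratios of -0.02, 0.10, -0.05, -0.71 and -0.37 in Lkb1-deleted tumors 1 to 5 and 0.03, 0.16 and -0.08 in Lkb1-intact tumors 1 to 3. Lkb1-deleted tumors 4 and 5 stood below the intact tumors, and the other 3 did not, with a difference of -0.25 (exact two-sided permutation p = 0.25). The median of the 95 bins within 1 Mb of Stk11 was -0.01, 0.03, 0.01, -0.36 and 0.02 in the deleted tumors and 0.11, 0.29 and -0.20 in the intact ones. Only in Lkb1-deleted tumor 4 was this neighbourhood below -0.3, and the groups overlapped (difference -0.13, exact permutation p = 0.393). Without Lkb1-intact tumor 2 the difference was -0.015, without Lkb1-intact tumor 3 it was -0.26, and without Lkb1-deleted tumor 4 it was -0.05. A small edit inside the gene leaves the coverage of a bin as it was, so these values do not check the label.

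At the scale of single bins, 34 of 59496 bins, or 0.0571%, differed by Lkb1 label in limma at a Benjamini-Hochberg adjusted p under 0.05, with 20 higher (0.0336%) and 14 lower (0.0235%) in the deleted tumors, while 7.68% had an unadjusted p under 0.05. Without any test, every deleted tumor was above every intact one in 1317 bins (2.21%) and below in 2492 (4.19%). Of the 338 segments that the 8 tumors share when segmented together without labels, 4 passed the same limma test, or 1.18%, and 33 had an unadjusted p under 0.05 (9.76%). Groups were apart in 13 segments with the deleted tumors higher (3.85%) and 17 with them lower (5.03%), and within both PAX8 labels in 21 (6.21%) and 32 (9.47%). Merged where they lie within 500 kb of each other, these bins and segments formed 22 loci, 10 lower and 12 higher in Lkb1-deleted tumors. The loci fell into 3 kinds by which group stood away from 0. In 8 lower and 5 higher loci the mean of the Lkb1-deleted tumors was past 0.5 on the log2 scale while that of the intact tumors was within 0.5 of 0. In 6 higher and 2 lower loci it was the intact tumors that stood away, and in 1 locus, Magea4, both did. Of the 34 bins 38.2% carried a gene name whose letters before the first digit are shared by at least 3 genes within 500 kb, against 7.18% of the bins tested. Genes with the same letters need not be related, and some of the 34 bins are neighbours, so they are not separate observations.

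**Figure D1:**
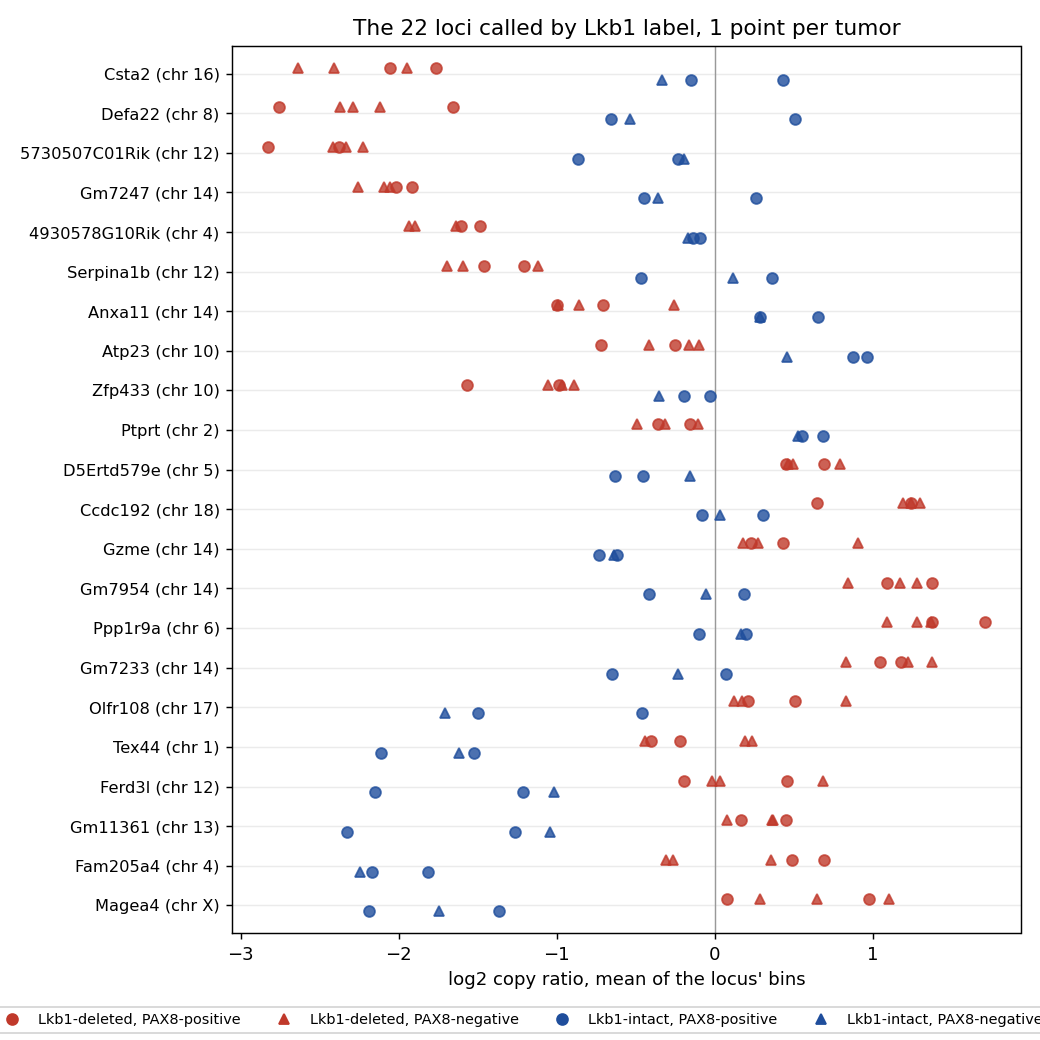
Log2 copy ratio of the 22 loci, as the mean of a locus' bins (x axis), with 1 point for each of the 5 Lkb1-deleted and 3 Lkb1-intact tumors, circles for PAX8-positive and triangles for PAX8-negative tumors. Names are those the bins carry in the files, and at each locus the 2 groups stand apart because that is how the loci were called; the lowest 4 loci of the plot show the reverse of the top 4, with a mean of the intact tumors from -2.08 to -1.46.

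Csta2 and Stfa1, which encode inhibitors of cysteine proteases, lay in a locus lower in Lkb1-deleted tumors, at chr16:36239456-36285373. This locus stood at -2.06, -2.41, -1.95, -1.76 and -2.64 in Lkb1-deleted tumors 1 to 5 and at -0.33, -0.15 and 0.43 in Lkb1-intact tumors 1 to 3. Every deleted tumor was more than 1 below every intact one, and the smallest adjusted p of its bins in limma was 0.006. Of 4 Stfa genes and 3 Csta genes measured, 1 of each, both at the called locus, had groups that did not overlap, where 3.01% of genes of any number of bins were lower without overlap, and Stfa2, Stfa2l1, Stfa3, Csta1 and Csta3 did not separate the tumors. On chromosome 12, the bin at chr12:103789486-103809929, where RefSeq places the predicted gene Gm17043, lies between Serpina1d and Serpina1a, genes of the alpha-1-antitrypsin family of serine protease inhibitors. It stood at -1.21, -1.12, -1.60, -1.46 and -1.69 against 0.11, 0.36 and -0.47. Serpina1e, at -2.0, -1.38, -1.85, -1.45 and -0.80 against -0.58, -0.40 and -0.46, and Serpina1d also had groups apart, whereas Serpina1a, Serpina1b and Serpina1c had groups that overlapped.

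The longest lower loci lay over repeated blocks of genes. The locus at chr14:25864480-26235744 runs from Anxa11, an annexin that binds calcium and phospholipids, over 3 repeats of Plac9, Tmem254, Cphx and Duxbl genes, the last of which encode homeobox proteins. Its 11 bins averaged -1.0, -0.99, -0.86, -0.71 and -0.26 in the deleted tumors and 0.29, 0.65 and 0.28 in the intact ones, a difference of -1.17 with a limma adjusted p of 0.017 as a segment. The 3 Cphx, 2 Duxbl, 2 Plac9 and 2 Tmem254 genes measured in this locus had groups that did not overlap, and so did Duxbl3 just outside it, where 3.01% of genes of any number of bins were lower without overlap. The locus was called for this difference, so these genes are no independent support of it. Lkb1-deleted tumor 5 stood nearest to the intact tumors. The zinc finger genes Zfp433 and Zfp781 bound a locus at chr10:81704825-81930480, which lies 1.57 Mb from Stk11. It stood at -0.99, -1.06, -0.97, -1.57 and -0.89 against -0.36, -0.20 and -0.03, with a limma adjusted p of 0.029 as a segment. Lkb1-deleted tumor 4, the lowest, had a lower level over the bins within 1 Mb on either side as well, at -0.37, and relative to those bins the 5 deleted tumors stood at -0.93, -1.05, -0.95, -1.20 and -0.84 against -0.39, -0.42 and 0.12.

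Deleted tumors lay close together at 2 further lower loci. At 5730507C01Rik (chr12:18514510-18535254) the deleted tumors stood at -2.83, -2.41, -2.33, -2.38 and -2.22 and the intact ones at -0.20, -0.87 and -0.23. At Gm7247 (chr14:51625303-51662953), in a region with genes for vomeronasal receptors, they stood at -2.02, -2.06, -2.09, -1.92 and -2.26 against -0.36, 0.26 and -0.45. The SD among the 5 deleted tumors was 0.23 and 0.12, smaller than the SD among the 3 intact tumors in both loci, 0.38 and 0.39. For the 2 loci described next it was 0.40 and 0.64 in deleted and intact tumors at Defa22, and in reverse order 0.19 and 0.04 at Fam205a1. A small spread favours a call in limma, so these SDs are only a description. The bin that holds Fam205a1 (chr4:42836566-42856771, 4930578G10Rik in the plot) stood at -1.61, -1.90, -1.64, -1.49 and -1.94 against -0.17, -0.13 and -0.09. Another bin that carries the same gene names, at chr4:42735545-42755749 and outside the 22 loci, ran the other way. It stood at 0.84, 0.78, 0.78, 1.31 and 0.34 against -0.62, 0.11 and -0.85. Defa22, 1 of the alpha-defensins that act against microbes in the gut, was lower too and more variable. It stood at -2.76, -2.37, -2.29, -1.66 and -2.12 against -0.54, 0.51 and -0.65. Its single bin is 0.972 kb long, with a depth of 0.13 to 0.36 in the deleted and 0.60 to 1.58 in the intact tumors. Such a bin holds few reads, so these values are uncertain. Of 20 Defa genes 19 were counted as overlapping, among them genes without a value in some tumors, such as Defa20 and Defa21. The limma adjusted p was 0.001 for the best bin of the loci of 5730507C01Rik, Gm7247 and Fam205a1.

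Among loci higher in the deleted tumors, one end of Ccdc192, a coiled-coil gene on chromosome 18, stood over chr18:57641390-57731065 at 0.65, 1.30, 1.24, 1.24 and 1.19 in Lkb1-deleted tumors 1 to 5 and at 0.03, 0.30 and -0.08 in the intact tumors. The gene as a whole, with 11 bins, did not separate the groups. Lkb1-deleted tumor 1 was the lowest of its group, and the bins within 1 Mb of the locus stood at -0.69 in that tumor. Relative to those bins the deleted tumors had 1.34, 1.39, 1.27, 1.36 and 1.36 and the intact tumors 0.09, 0.20 and 0.21, an SD of 0.05 among the 5. A bin in Ppp1r9a (chr6:4921684-4940451), which encodes neurabin, a partner of protein phosphatase 1 at the actin cytoskeleton, stood at 1.38, 1.37, 1.09, 1.71 and 1.28 against 0.16, -0.10 and 0.20. On chromosome 14 the loci of the predicted genes Gm7954 and Gm7233 averaged 1.15 ± 0.20 and 1.13 ± 0.20 (SD, n = 5) in the deleted tumors and -0.10 ± 0.30 and -0.27 ± 0.36 (SD, n = 3) in the intact ones. The median of the tumor's own bins within 1 Mb was then taken off, an addition made after the values were seen. The groups stayed apart in 21 of the 22 loci. The exception was the bin beside Serpina1d, where Lkb1-deleted tumor 1 came to -0.47 and Lkb1-intact tumor 3 to -0.48. The loci were called for their difference between these groups, so this count is only a description. At Gm7233 the bins around the locus themselves differed between the groups, by -0.70.

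**Figure D2:**
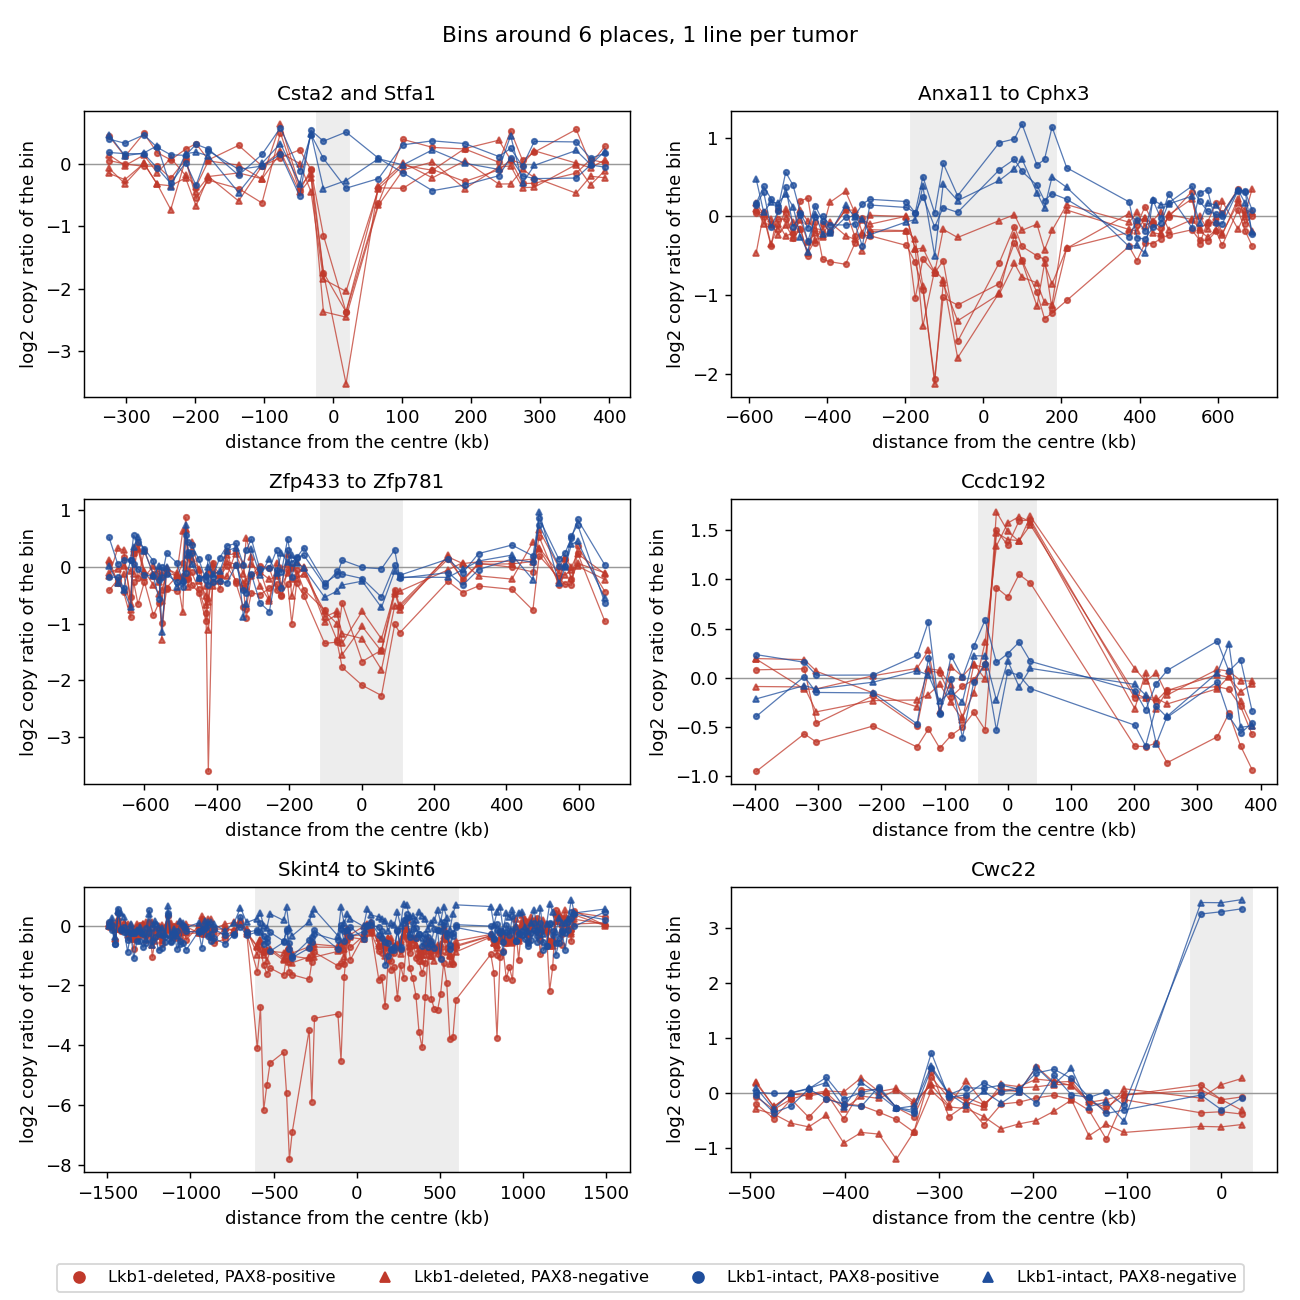
Log2 copy ratio of single bins (y axis) by distance in kb from the centre of 6 places (x axis), with 1 line for each tumor and the place itself shaded grey; lines run straight over stretches without bins. Outside the shaded part the tumors of both groups are mixed, with single bins past 1 in tumors of either group, and beside Ccdc192 Lkb1-deleted tumor 1 lies lower (-0.69). Within the shaded part the groups part except at Cwc22. There Lkb1-intact tumors 1 and 2 stand above 3, and Lkb1-intact tumor 3, at -0.15, lies among the deleted tumors.

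Loci of the second kind, with intact tumors low, were found in very short bins. In the 6 higher loci of this kind the bin length ran from 0.606 to 5.80 kb. Fam205a4 (chr4:41966058-41971856) stood at 0.49, -0.31, 0.36, 0.69 and -0.27 in the deleted and -2.25, -1.82 and -2.17 in the intact tumors, and Tex44, a testis-expressed gene, at -0.22, -0.44, 0.23, -0.40 and 0.19 against -1.62, -2.11 and -1.52. Magea4, of the MAGE family of cancer-testis genes, stood at 0.08, 0.29, 1.10, 0.98 and 0.65 against -1.75, -2.19 and -1.37. Depth in the intact tumors was 0.15 to 0.26 over Fam205a4, 0.26 to 0.34 over Tex44 and 0.20 to 0.32 over Magea4. In the deleted tumors it was 0.77 to 1.57, 0.77 to 2.03 and 0.81 to 2.65. Bins this short hold few reads at the depth of the intact tumors, so the low values are uncertain. Of the 20 bins called higher 60% were shorter than 10 kb, against 14.3% of the 14 called lower and 9.53% of the bins tested. Bins under 3 kb had a median of -0.15 in the deleted and -0.28 in the intact tumors (exact permutation p = 0.143), while bins of 10 kb or more stood at -0.01 and 0.00. Their part in the results for Fam205a4, Tex44, Magea4 and the other short bins was not tested. Without bins under 10 kb, an addition made after the values were seen, limma called 44 bins, of which 11 were higher. The 2 lower loci with the intact tumors away from 0 were single bins in Ptprt, a receptor tyrosine phosphatase, and Atp23, a protease of mitochondria. Both stood above 0 in each intact tumor, at 0.52, 0.68 and 0.55 for Ptprt and 0.46, 0.88 and 0.97 for Atp23.

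Noise between neighbouring bins was higher in the intact tumors and was set beside each of these results. It was 0.231, 0.193, 0.161, 0.218 and 0.158 on the log2 scale in Lkb1-deleted tumors 1 to 5 and 0.255, 0.236 and 0.229 in the intact tumors, a difference of -0.048 (exact permutation p = 0.0714). Lkb1-deleted tumor 1 was noisier than Lkb1-intact tumor 3, so the groups overlapped. These 2 tumors share their PAX8 label and the ending of their number, whose meaning the labels do not give. Between them the 22 loci differed by 0.67 to 2.66, with a median of 1.37. Lkb1-deleted tumor 2 and Lkb1-intact tumor 1, which share another ending and are both PAX8-negative, differed by 0.56 to 2.22 with a median of 1.27. The loci were called with these tumors in the groups, which fixed the direction, so these sizes are only a description. With noise as a term in the limma fit 6 bins were called, of which 4 are among the 34, and they lie in the loci of Fam205a4, 5730507C01Rik, Gm7247 and Gm7954; the segments called fell from 4 to 0. With the PAX8 label as a term 27 bins were called, of which 21 are shared, in 14 loci. With the ending of the tumor number as a term, an addition made after the values were seen, 38 bins were called, of which 20 are among the 34, and 0 segments. The calls also depend on single tumors, as 10 bins were called without Lkb1-intact tumor 1, 20 without Lkb1-deleted tumor 4 and 21 without Lkb1-deleted tumor 3. The 4 segments became 0 without Lkb1-deleted tumor 2, Lkb1-deleted tumor 3 or Lkb1-intact tumor 1, 1 without Lkb1-deleted tumor 1 and 2 without Lkb1-deleted tumor 4.

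Among bins of at least 10 kb the largest differences mostly ran the same way within each PAX8 label. The PAX8-positive comparison, 2 deleted against 2 intact tumors, and the PAX8-negative one, 3 against 1, have no tumor in common. Of 53824 bins of at least 10 kb, 114 differed by at least 0.7 on the log2 scale in the same direction in both, 23 higher and 91 lower in the deleted tumors, and 2 did so in opposite directions. At a difference of 1 the numbers were 57 and 1, and at 0.5 they were 265 and 58. Neighbouring bins are not separate observations, and 40 of the 114 bins lie in 1 run on chromosome 4. In the 5672 shorter bins 175 differed by 0.7 in the same and 94 in opposite directions. Smaller differences were shared far less. Over the 3782 genes of at least 4 bins the 2 differences had a Pearson r of 0.12 and a Spearman rho of 0.08, and 53.4% had the same sign, where genes share chromosomes and are not independent. In limma 3 bins (0.00504%) passed within PAX8-positive and 11 (0.0185%) within PAX8-negative tumors, and the Lkb1 difference itself differed between the PAX8 labels in 5 bins (0.0084%), Olfr1411, Gm47996, Gm5773, Rassf7 and Gm12355, each shorter than 4 kb. Lkb1-intact tumor 1, the noisiest library, is the only PAX8-negative intact tumor. It stood below every other tumor in Olfr1411, Gm47996, Gm5773 and Gm12355, at -1.74, -2.90, -3.62 and -3.60. The difference in these bins rests on that single library, and whether another such tumor would show it was not tested. In Rassf7 Lkb1-deleted tumors 1 and 4 were lowest, at -2.14 and -2.10, and Lkb1-intact tumor 1 stood at -1.46. No gene of at least 4 bins and no segment passed limma within a PAX8 label or in the test of the difference between labels.

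**Figure D3:**
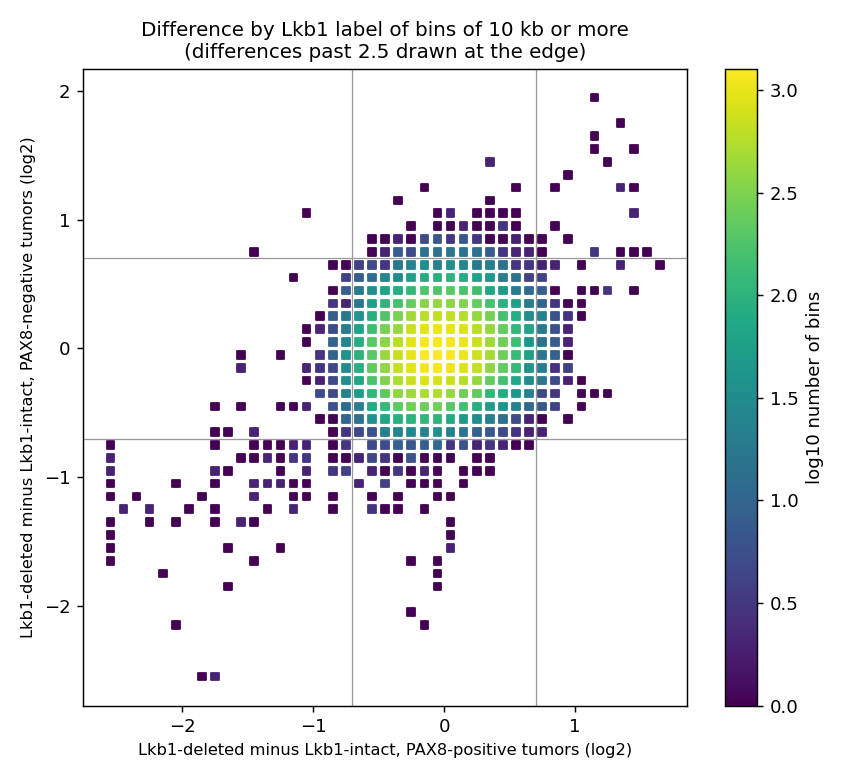
Mean log2 copy ratio of Lkb1-deleted minus Lkb1-intact tumors in each of 53824 bins of at least 10 kb, in PAX8-positive tumors (x axis) and PAX8-negative tumors (y axis), coloured by the log10 number of bins in a square; grey lines mark 0.7 in either direction. The upper right and lower left corners hold 23 and 91 bins and the other 2 corners hold 2.

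The 114 bins formed 40 runs, of which 27 had no bin in the 22 loci. The longest was the Skint stretch on chromosome 4, with 40 bins over chr4:112072016-113869100. Skint genes encode relatives of butyrophilins in the skin and thymus, and Skint1 is needed for a class of gamma-delta T cells of the mouse epidermis. Skint3 stood at -1.59, -1.06, -0.93, -6.26 and -1.02 in Lkb1-deleted tumors 1 to 5 and at 0.05, -0.57 and -0.65 in the intact tumors, and Skint4 at -1.41, -0.86, -0.81, -4.60 and -0.80 against 0.24, -0.41 and -0.22. Every deleted tumor was below every intact one, and Lkb1-deleted tumor 4 was far below the rest, with a mean depth of 0.036 over Skint3 where the other deleted tumors had 0.555 to 1.34. Of 11 Skint genes measured 5, among them Skint6, Skint9 and Skint10, were lower without overlap, against 3.01% of genes of any number of bins, and 6 overlapped, Skint1 at -0.21 against -0.14 among them. These genes lie side by side and were picked after the run was seen. The limma adjusted p of Skint3 and Skint4 was 0.96, with an SD of 2.30 and 1.64 among the deleted tumors.

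Another of these runs was raised in intact tumors. Cwc22, which encodes a splicing factor and lies in a segment known to vary in copy number between mouse strains, had 3 bins over chr2:77881159-77946375 at 3.47 in Lkb1-intact tumor 1 and 3.29 in Lkb1-intact tumor 2. Lkb1-intact tumor 3 stood at -0.15 and the deleted tumors at -0.37, -0.60, 0.10, -0.02 and -0.13. The groups therefore overlapped, and the labels name the same strain for the 8 tumors. A run of 9 bins over chr14:43837682-44687372, mostly of predicted genes such as Gm5624 and Gm8247, stood at -2.45, -2.19, -2.33, -2.41 and -0.57 in the deleted tumors against -0.51, 0.14 and -0.75. Lkb1-deleted tumor 5 was among the intact tumors here, as it was near them over the Cphx genes. In the same region lies the bin of Ang6, an angiogenin gene, which is only 443 bases long. It had a depth of 0 in Lkb1-deleted tumors 1 to 4 and 1.01 in tumor 5, and 0.63, 1.77 and 0.65 in the intact tumors. It was 1 of 2 bins with a depth of 0 in 4 deleted and 0 intact tumors, and the other, Gm21836, is 62 bases long.

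At the scale of whole genes the groups were not separated by a test. Of 3782 genes with at least 4 bins limma called 0 (0.0%) at an adjusted p under 0.05, while 145 had an unadjusted p under 0.05, or 3.83%. Taking genes of any number of bins, an addition made after the values were seen, 9 of 20762 passed, or 0.0433%. Every Lkb1-deleted tumor was above every intact one in 81 genes of at least 4 bins (2.14%) and below in 104 (2.75%). Within both PAX8 labels separately 154 genes were higher (4.07%) and 216 lower (5.71%). The genes below were chosen from these counts for the size of their difference and are a description, and none of them passed limma (adjusted p = 0.96 for each).

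Genes higher in the deleted tumors differed mainly through low values in intact tumors. St3gal4, a sialyltransferase at chr9:35046576-35116864, stood at 0.23, 0.06, 0.04, 0.13 and 0.08 against -0.80, -1.10 and -0.04. Lkb1-intact tumors 1 and 2 held the low values, and Lkb1-intact tumor 3 was close to the deleted tumors. Ide, the insulin-degrading enzyme, ran the other way, with 0.61, 0.42 and 0.70 in Lkb1-deleted tumors 2, 3 and 4, 0.00 and 0.09 in tumors 1 and 5, and -0.12, -0.34 and -0.33 in the intact tumors. C1qtnf7, Rgs12, Aldh1a2 (which makes retinoic acid), Gpc3 (a glypican), Adgrf5, Cemip2, Ercc6 (a factor of transcription-coupled repair) and Satb1 differed by 0.29 to 0.50. Stx18, Tbcel and Shoc2, a scaffold of RAS signalling, were added by the rule for both PAX8 labels, with 0.40, 0.33 and 0.26.

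Among lower genes, Fgfr2, a receptor for fibroblast growth factors at chr7:130162451-130266808, stood at -0.11, -0.22, -0.88, -0.52 and -0.21 against -0.05, 0.66 and 0.00. Lkb1-deleted tumor 3 was the lowest and Lkb1-intact tumor 2 the highest. These tumors were also the extremes at Btbd16, at -1.03 and 0.71. Btbd16 lies near Fgfr2 (chr7:130774069-130825901) and is no separate observation. Myo3a, a myosin of sensory cells, was more even, at 0.16, 0.21, 0.05, -0.04 and -0.03 against 0.44, 0.65 and 0.59 over 15 bins. Pkhd1, the gene of recessive polycystic kidney disease, stood over 28 bins at 0.02, 0.22, 0.10, 0.20 and 0.12 against 0.44, 0.50 and 0.40. Phkb, Cfdp1, Abca16, Herc6, Wdr49 and Atf2 differed by -0.42 to -0.31, and Nfix and Adamts6, from the rule for both PAX8 labels, by -0.34 and -0.32. Genes with groups apart were gathered on few chromosomes, with 27 of 161 lower on chromosome 8 and 29 of 300 on chromosome 1, and 21 of 106 higher on chromosome 19 and 18 of 212 on chromosome 9. Neighbouring genes share segments and are not separate observations. Runs of at least 3 such genes in a row included Nfix to Abcc12 on chromosome 8 and Ets1 to Cdon on chromosome 9, where the 4 genes had median differences of -0.31 and 0.34.

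**Figure D4:**
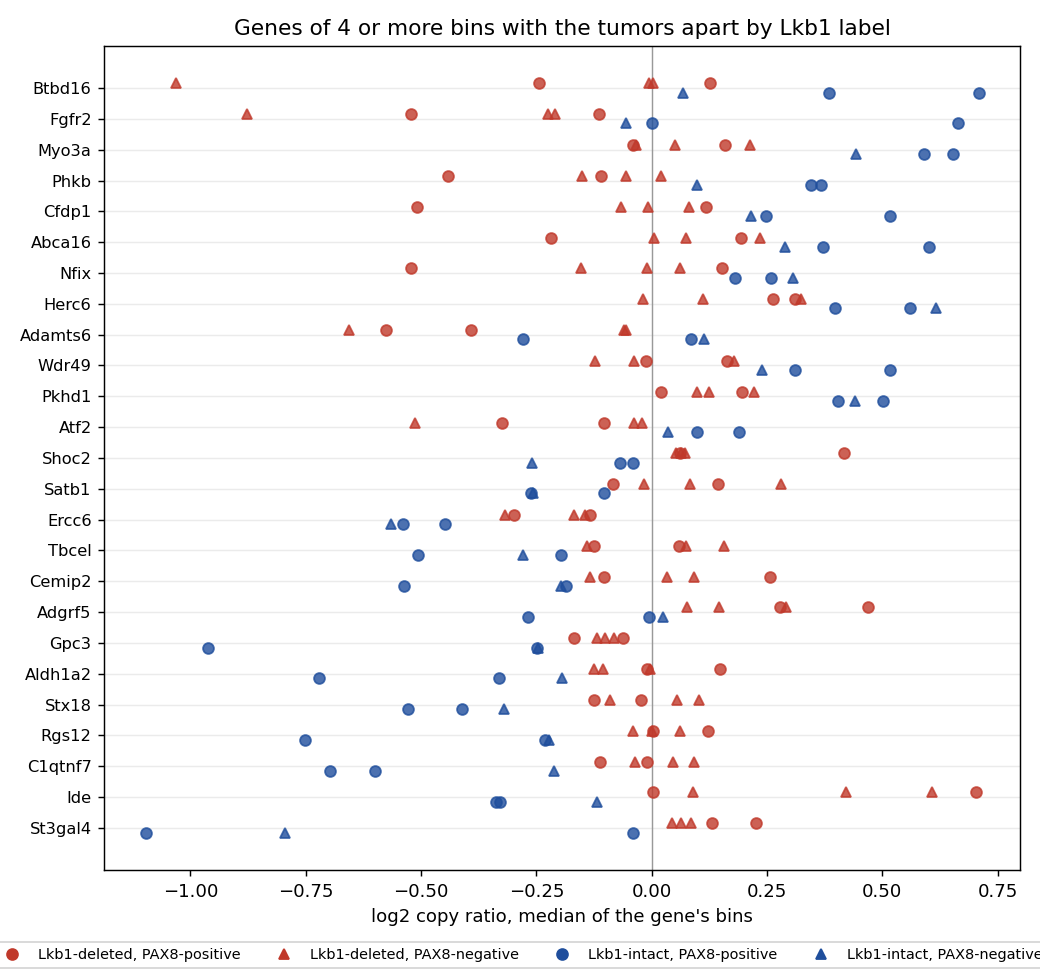
Log2 copy ratio of named genes with at least 4 bins, as the median of a gene's bins (x axis), with 1 point per tumor and circles and triangles for PAX8-positive and PAX8-negative tumors. Skint3 and Skint4 are left out because of their range; the groups do not overlap except at Btbd16 and Adamts6, which are apart within each PAX8 label.

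No gene of the LKB1 pathway lists passed the test. Of the 12 genes of the LKB1 complex and AMPK, the 17 targets of AMPK and SIK and the 14 genes of the Hippo pathway, 0 passed limma and 0 had groups apart, with median differences of 0.02, -0.00 and 0.01 against -0.01 over the genes tested. Of the 12 AMPK-related kinases 1, Brsk2, which acts in neuronal polarity, was lower in each deleted tumor, at -0.24, -0.09, -0.23, -0.66 and -0.18 against 0.01, 0.12 and 0.08, and did not pass limma (adjusted p = 0.722). Among 20 oncogenes Cdk6 and Braf, a cell cycle kinase and a kinase of the MAPK pathway, were higher without overlap, by 0.23 and 0.11. Among 20 tumor suppressors Brca1 was lower without overlap, at -0.00, -0.02, -0.06, -0.30 and -0.10 against 0.16, 0.11 and 0.21. Among 18 genes of genome stability Chek1, a checkpoint kinase, was higher and Rad51c, a factor of homologous recombination, lower, by 0.33 and -0.35. Over genes of any number of bins 2.54% were higher and 3.01% lower without overlap, and limma called 0 genes of any list. The 19 long genes of common fragile sites had 0 with groups apart and a median difference of -0.03.

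Counts of breakpoints and segments overlapped between the groups. Segmentation of each tumor with a penalty scaled to its own noise gave 143, 145, 112, 130 and 118 breakpoints in Lkb1-deleted tumors 1 to 5 and 127, 232 and 170 in the intact tumors (difference -46.7, exact permutation p = 0.143). With the noise of the noisiest library for each tumor the difference was -69.3, and with the penalty halved -174, both with an exact permutation p of 0.0357, the smallest possible, while without Lkb1-intact tumor 2 it was -18.9 and without Lkb1-intact tumor 1 -71.4. Lkb1-intact tumor 1, the noisiest library, lay among the deleted tumors, and Lkb1-intact tumor 2 was the highest. Altered segments of at least 10 Mb, with a mean past 0.2, numbered 32, 5, 0, 32 and 7 against 0, 44 and 28 (exact permutation p = 0.571 for the Lkb1 label). These counts followed the PAX8 label in both groups, which was not tested here. Altered segments under 10 Mb numbered 64, 59, 55, 62 and 47 against 51, 117 and 67 (exact permutation p = 0.321), and their difference of -20.9 was -1.6 without Lkb1-intact tumor 2 and -34.6 without Lkb1-intact tumor 1. Mean size of the altered segments, weighted by length, was 0.41, 0.40, 0.83, 0.37 and 0.35 against 0.46, 0.39 and 0.30 (exact permutation p = 0.679). The share of 5 Mb windows altered in both the odd and the even bins, which independent noise does not give, was 40.4%, 6.36%, 0.187%, 41.9% and 8.60% against 1.31%, 40.4% and 26.0% (exact permutation p = 0.929). Genes past 0.7 in either direction numbered 150, 29, 16, 39 and 9 against 3, 126 and 11 (exact permutation p = 0.786). Over the 7 measures the adjusted p was at least 0.5, and 56 splits of 5 against 3 allow no exact p under 0.0357.

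**Figure D5:**
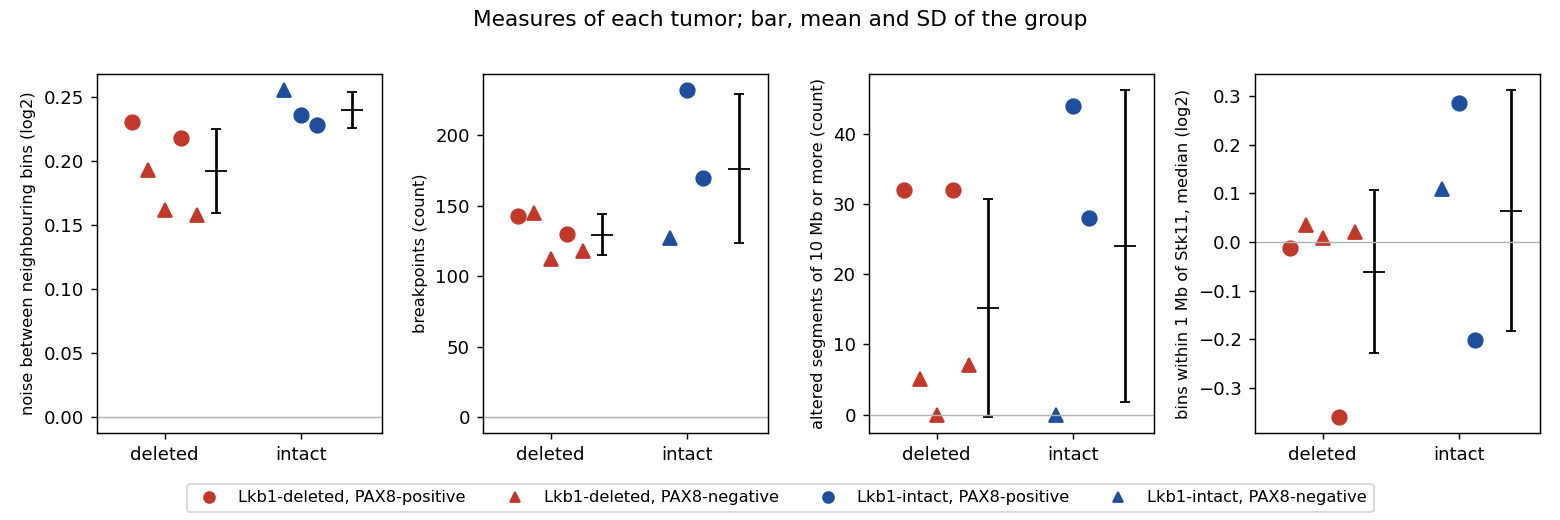
Noise between neighbouring bins, breakpoints, altered segments of at least 10 Mb and the median of bins around Stk11 (y axes) for each tumor by Lkb1 label (x axis), with circles and triangles for PAX8-positive and PAX8-negative tumors and the mean and SD of each group in black. The groups overlap in each panel; the 3 intact libraries lie at 0.229 to 0.255 in noise, at the upper end of the range.

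Profiles were as alike between groups as within them at a broad scale. The mean Pearson r of 5 Mb window profiles was 0.18 in pairs of tumors with the same Lkb1 label and 0.18 in pairs with different labels (difference -0.005, exact permutation p = 0.964). In 1 Mb windows, which short loci can move, pairs with the same label were more alike by 0.069, with an exact permutation p of 0.0357, the smallest that the splits allow. Mean depth was 1.25 to 2.24 in the deleted and 1.31 to 1.57 in the intact tumors.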

How the data were processed

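Low-coverage sequencing of DNA from 8 tumors was analysed; 3 tables of ascites cells were left aside. Per the file headers, the authors deposited for each bin its log2 copy ratio, its depth (a coverage signal) and a weight (a score, not used). The submitters' processing notes name BWA and Picard, with GRCm38 (mm10) as the build, and which program made the copy ratios is not given. Between 7 and 50 bins of a tumor had a depth of 0 and a placeholder ratio, and these were taken as missing.

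Bins were summarised per gene by their median, matched by name to the span of the gene in RefSeq (GRCm38.p6). Of 21244 names in the files 489 had no RefSeq match. Segments came from penalised least squares with at least 5 bins, on the 8 tumors together without labels and on each tumor alone, with outlying bins drawn in to 3 noise SDs of a running median of 11 bins. Noise is the scaled median absolute difference of neighbouring bins. limma 3.58.1 in R 4.3.3 fitted the Lkb1 label across genes, segments or bins, with Benjamini-Hochberg adjustment over each table, and a fit over the 4 combinations of Lkb1 and PAX8 labels gave the contrasts within PAX8 labels and their difference. In that fit the lone PAX8-negative intact tumor is assumed to vary like the others. Single measures were compared by exact two-sided permutation over 56 splits. Named genes had groups that do not overlap (10 per direction) or are apart within both PAX8 labels (5 per direction), by size of difference. Within each rule and direction at most 1 per 5 Mb and 2 per chromosome were taken, so genes of different rules can lie close together. Predicted genes and olfactory or vomeronasal receptor genes were passed over, and list genes with groups apart were added. The comparison, the lists and the rules were chosen with earlier results of these data known. The length classes of bins, the gene families, the strong bins within PAX8 labels, the levels relative to the bins around a locus and the fit with the ending of the tumor number as a term were added after the values were seen. The fit and the segmentation were tested on simulated data. The labels do not say whether each tumor came from its own mouse, and p-values measure the spread between these tumors. Other steps ran in Python 3.11.15 with pandas 2.3.3, numpy 2.4.6 and, for plots, matplotlib 3.10.9.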

Additional observations from a re-analysis of the deposited data

Results flagged for a closer look

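Of 61 groups of values checked for a sample far from the others, 8 had one, each among the 5 Lkb1-deleted tumors. Chance gives about 1 in 20 for independent checks, and these are not independent. Skint3 and Skint4 lie side by side, and the locus of Zfp433 lies 1.57 Mb from Stk11. No comparison between the groups is drawn from these flags, since the intact group has only 3 tumors. Lkb1-deleted tumor 4 held 5 of them. Its bins around Stk11 had a median of -0.36, the locus of Zfp433 stood at -1.57, Shoc2 at 0.42, Skint3 at -6.26 and Skint4 at -4.60. Lkb1-deleted tumor 1 stood apart at the locus of Ccdc192, with 0.65, and in its number of genes past 0.7, which was 150. Lkb1-deleted tumor 3 stood apart in the size of its altered segments, at 0.83, and it had 0 altered segments of at least 10 Mb.

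Mean depth ran in opposite directions within the PAX8 labels. Lkb1-deleted tumors were shallower than intact ones among PAX8-positive tumors, by -0.16, and deeper among PAX8-negative tumors, by 0.68, a difference of -0.84 that was not tested.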

How the results depend on the processing

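No paired analysis was possible because the labels give no replicate numbers, and those used here follow the order of listing. Endings of the tumor numbers, 2 of which hold both Lkb1 groups, entered as a term in a fit added after the values were seen, which called 0 genes, 0 segments and 38 bins.

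The count of 0 genes by limma stayed at 0 in 15 alternatives and became 2 with at least 2 bins per gene, 1 with the mean of bins and 9 with genes of any number of bins. The 4 segments became 0 with noise as a term, 0 for 5 Mb windows, 9 with the penalty halved and 2 with it doubled, and the 34 bins became 73 with library weights and 6 with noise as a term. Leaving out 1 tumor at a time gave 0 to 1 genes, 0 to 6 segments and 10 to 50 bins. Genes with groups apart (185 in both directions) numbered 447 with at least 2 bins and 78 with at least 8, and 235 to 525 without 1 tumor, since fewer tumors overlap less. Genes apart within both PAX8 labels (370) numbered 887 and 158 with those minimums. The breakpoint difference of -46.7 became -174 with the penalty halved and -69.3 with the noise of the noisiest library for each tumor, both with an exact permutation p of 0.0357, and ran from -71.4 to -18.9 without 1 tumor. The cause was not tested.

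Other differences turned sign. The number of genes with a strong change differed by -1.4 at a threshold of 1 and by -23.4 to 41.6 without 1 tumor. The share of windows altered in both the odd and the even bins differed by 5.84 within PAX8 labels and by -13.7 to 5.83 percentage points without 1 tumor. The size of altered segments differed by -0.0042 to 0.121 without 1 tumor. The likeness of profiles differed by 0.069 in 1 Mb and 0.022 in 10 Mb windows, and by -0.031 to 0.021 without 1 tumor. Differences in noise, short segments and the bins around Stk11 kept their direction, with an exact p above 0.05, in each alternative run, but those of short segments (-34.6 to -1.6) and the bins around Stk11 (-0.26 to -0.015) were nearly lost without Lkb1-intact tumor 2.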
